A study of Mus musculus with 13 samples.

Results

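The enzymes described here are those that acinar cells of the exocrine pancreas secrete into the duodenum, measured in RNA from mouse duodenum. Of 10 named acinar genes, 9 had a probe set annotated with their symbol alone: the carboxypeptidase genes Cpa1 and Cpb1, the serine protease genes Prss2, Ctrb1, Cela2a and Cela3b, and the lipid-digesting genes Cel, Pnliprp1 and Clps. Pnlip, the gene of pancreatic triglyceride lipase, had none and has no value here. The 9 genes had 16 such probe sets, and each gene is given by the one with the highest mean over all arrays, out of 12393 genes taken the same way. The genes were chosen as known products of acinar cells, but with earlier results of these data known. No measured difference between groups enters the rule that picks their probe sets.

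Acinar cells store digestive enzymes, most of them as inactive precursors, in zymogen granules and release them into pancreatic juice when cholecystokinin and nerves call for it. The juice enters the duodenum, where enterokinase on the enterocyte surface cuts trypsinogen and the trypsin formed activates the other precursors. In rodents the pancreas is spread through the mesentery along the duodenal loop, so that the gland lies directly against the gut wall. The genes were therefore taken as a marker of that adjoining tissue in duodenal samples.

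The series holds 13 arrays, 1 per sample, and its title joins a high-fat diet, a changed gut flora and activated K-Ras in intestinal tumour formation. Mice of mixed strain background, either wild type or carrying mutant K-Ras (called ViRas in the labels, which give neither the allele nor what drives it), were placed on their diet at 5 weeks of age and killed after 22 weeks on it. The groups were wild type on normal diet (2 arrays), mutant on normal diet (3), wild type on high-fat diet (2), mutant on high-fat diet (2), wild type on high-fat diet with butyrate (1) and mutant on high-fat diet with butyrate (3). Butyrate is a fatty acid that bacteria of the gut form from fibre, and all animals given it were also on the high-fat diet. Values are the authors' log2 expression levels, so a difference of 1 is a doubling of signal, and a level is comparable between arrays for a given probe set but not between probe sets. Array medians lay between 6.04 and 6.14. The number of arrays per group limits the precision of every comparison. The tissue carried its own defining markers: Vil1 (villin, of the brush border) lay between 11.83 and 12.32 and Fabp1 (a fatty acid binding protein of enterocytes) between 13.53 and 13.78 on every array.

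Acinar genes share a transcription factor, PTF1, in which PTF1A and RBPJL take part and which binds a pair of short motifs, an E-box and a TC box. The 250 bases before the start of 3 members whose levels moved together across the arrays are shown, Ctrb1 and Cel because they hold this pair and Cpa1 because it holds both motifs without the order searched for below. The sequences are from RefSeq on GRCm38.p6, in the direction of the gene, at chr8:111691011-111691260 (minus strand) for Ctrb1, chr2:28563404-28563653 (minus strand) for Cel and chr6:30638968-30639217 (plus strand) for Cpa1. Capitals mark CANNTG (the E-box, the same on both strands) and TTTCCC (the TC box, which reads GGGAAA on the other strand).
Ctrb1: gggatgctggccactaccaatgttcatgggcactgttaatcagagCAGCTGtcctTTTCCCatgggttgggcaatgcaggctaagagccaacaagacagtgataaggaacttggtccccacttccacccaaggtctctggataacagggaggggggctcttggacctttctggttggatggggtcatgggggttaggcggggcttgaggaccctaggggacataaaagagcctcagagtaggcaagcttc
Cel: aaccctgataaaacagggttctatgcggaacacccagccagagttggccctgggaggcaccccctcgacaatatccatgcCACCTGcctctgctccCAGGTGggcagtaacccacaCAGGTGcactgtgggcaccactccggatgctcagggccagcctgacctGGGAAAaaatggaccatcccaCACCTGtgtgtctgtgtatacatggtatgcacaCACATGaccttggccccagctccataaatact
Cpa1: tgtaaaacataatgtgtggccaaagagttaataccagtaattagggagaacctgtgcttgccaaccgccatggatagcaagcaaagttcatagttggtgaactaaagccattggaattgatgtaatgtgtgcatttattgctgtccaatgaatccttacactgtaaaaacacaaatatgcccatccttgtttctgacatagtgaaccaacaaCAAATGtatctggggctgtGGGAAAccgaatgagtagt
The 9 members with a promoter sequence include Pnlip, which has no value here and held neither motif, and not Clps. Among these 9, 8 held CANNTG and 5 held TTTCCC on either strand, against 66.2% and 21.9% of all 32851 promoters of that length. The 2 motifs in that order with 4 to 16 bases between them stood in 2 of the 9, Ctrb1 and Cel, and in 1.27% of all promoters. In Ctrb1 the pair lay on the gene's own strand, 205 to 190 bases before the start with a spacer of 4 bases. In Cel it lay on the opposite strand, 86 to 60 bases before the start with a spacer of 15 bases. A match is a description of the letters, and neither binding nor open chromatin was measured here.

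The acinar enzymes differed more between arrays of the same genotype and diet than nearly any other gene, and they were either high or low as a set. On 8 arrays the mean log2 level of the 9 genes was 10.98 or higher, and on 5 arrays it was 6.51 or lower, with no array in the gap of 4.46 between. The 5 low arrays were wild-type normal diet array 1, mutant normal diet array 2, mutant high-fat array 2 and mutant butyrate arrays 1 and 3. The 8 high arrays were 4 wild-type and 4 mutant ones and came from all 6 groups. High and low arrays therefore stood side by side in 4 of the 6 groups, the exceptions being the wild-type high-fat pair and the single wild-type butyrate array, which were high.

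**Figure D1:**
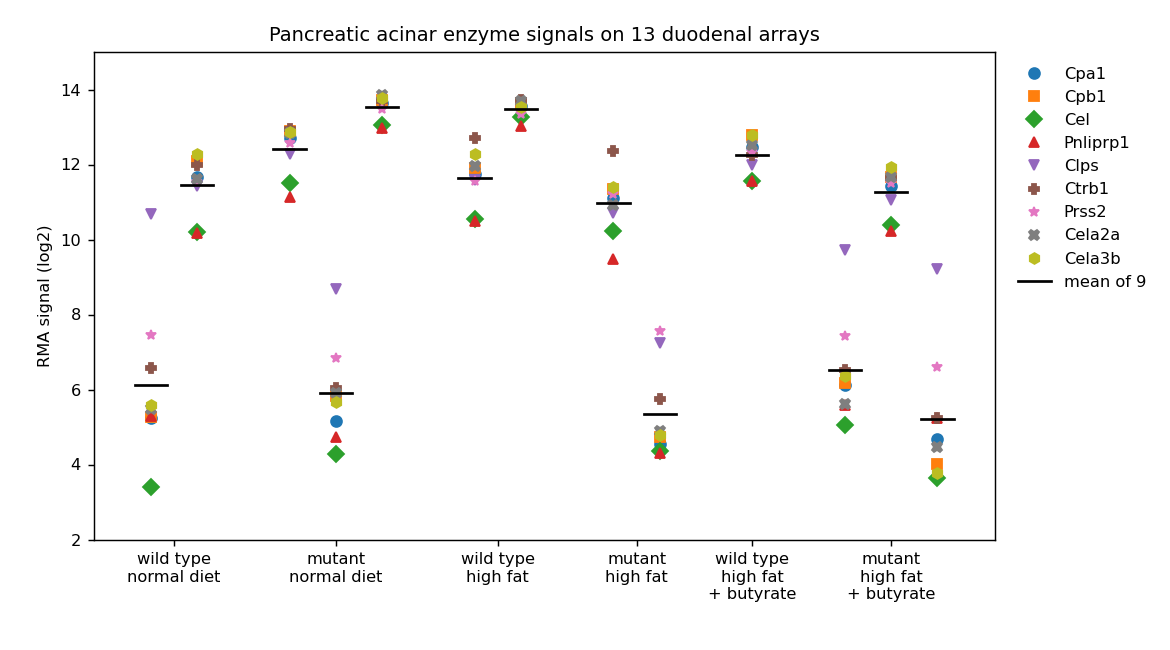
Log2 level (vertical axis) of each acinar enzyme gene on each of the 13 arrays, set out by genotype and diet (horizontal axis), with the mean of the 9 genes as a short bar. The mean lies at or above 10.98 on 8 arrays and at or below 6.51 on 5, and Clps is the gene that falls least on the low arrays.

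Cpa1 encodes carboxypeptidase A1, which removes aromatic and aliphatic residues from the ends of peptides. On normal diet its log2 level was 5.25 and 11.66 on the wild-type arrays and 12.72, 5.17 and 13.65 on the mutant arrays. On high-fat diet it was 11.74 and 13.57 in wild type and 11.10 and 4.55 in mutants. With butyrate it was 12.47 on the wild-type array and 6.13, 11.42 and 4.68 on the mutant arrays. The lowest and highest arrays lay 9.10 apart, a 549-fold difference in signal, and no array fell between 6.13 and 11.10. Cpb1, the gene of carboxypeptidase B1, which removes basic residues, had the same 5 arrays low (4.0 to 6.18) and the same 8 high (11.34 to 13.73).

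The serine proteases are secreted as precursors that cut proteins at different residues once active. Ctrb1 (chymotrypsinogen B1) was at a log2 level of 6.58 and 12.00 in wild type on normal diet and at 12.95, 6.03 and 13.70 in mutants. On high-fat diet it was at 12.71 and 13.72 in wild type and at 12.35 and 5.73 in mutants, and with butyrate at 12.25 in wild type and at 6.53, 11.65 and 5.24 in mutants. Its levels thus split as those of Cpa1 did, with nothing between 6.58 and 11.65. The elastase gene Cela3b had the largest range of the members with the probe sets used. It went from 3.78 on mutant butyrate array 3 to 13.77 on mutant normal diet array 3, which is 1014-fold. The other Cela3b probe sets had the same 5 arrays lowest. However, 1 of them ran only from 5.86 on mutant high-fat array 2 to 13.53 on wild-type high-fat array 2. The size of the range thus depends on the probe set. Cela2a, another elastase gene, ranged over 9.39. Prss2, a trypsinogen gene, lay between 6.61 and 7.57 on the low arrays and between 11.23 and 13.47 on the high ones. The Prss2 probe set is of a type whose probes can match related transcripts, so the value may include other trypsinogens. The probe set used for Cela3b is of this type too. The other 3 Prss2 probe sets had the same 5 arrays lowest, and the one with the lowest values ranged from 4.65 to 13.18.

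The genes for handling lipid fell into 2 patterns. Cel, the bile salt-stimulated carboxyl ester lipase that acts on cholesteryl esters among others, was at a log2 level of 3.41 and 10.21 in wild type on normal diet and at 11.50, 4.28 and 13.04 in mutants. On high-fat diet Cel was at 10.56 and 13.27 in wild type and at 10.23 and 4.35 in mutants, and with butyrate at 11.56 in wild type and at 5.04, 10.39 and 3.64 in mutants. Pnliprp1, a lipase-related protein, split the same way, between 4.31 and 5.59 on the low arrays and 9.48 and 13.01 on the high ones.

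Clps, the gene of colipase, the cofactor that holds pancreatic lipase on bile-coated fat droplets, was the member that stood apart. Its log2 level was 10.69 and 11.42 in wild type on normal diet and 12.29, 8.69 and 13.62 in mutants. On high-fat diet it was 11.59 and 13.49 in wild type and 10.71 and 7.23 in mutants, and with butyrate 11.98 in wild type and 9.73, 11.06 and 9.20 in mutants. The range was 6.39, or 84.0-fold, and the largest gap, 1.46, set off only mutant high-fat array 2. On wild-type normal diet array 1, where every other member was at the low end, Clps was within 0.73 of the other wild-type array on that diet. Per unit of the mean of the other 8 members, Clps rose by 0.47 across the 13 arrays, against 0.77 for Prss2 and 0.98 to 1.17 for the other 7. A second Clps probe set gave the same picture, from 5.88 on mutant high-fat array 2 to 12.94 on mutant normal diet array 3, with 9.29 on wild-type normal diet array 1.

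**Figure D2:**
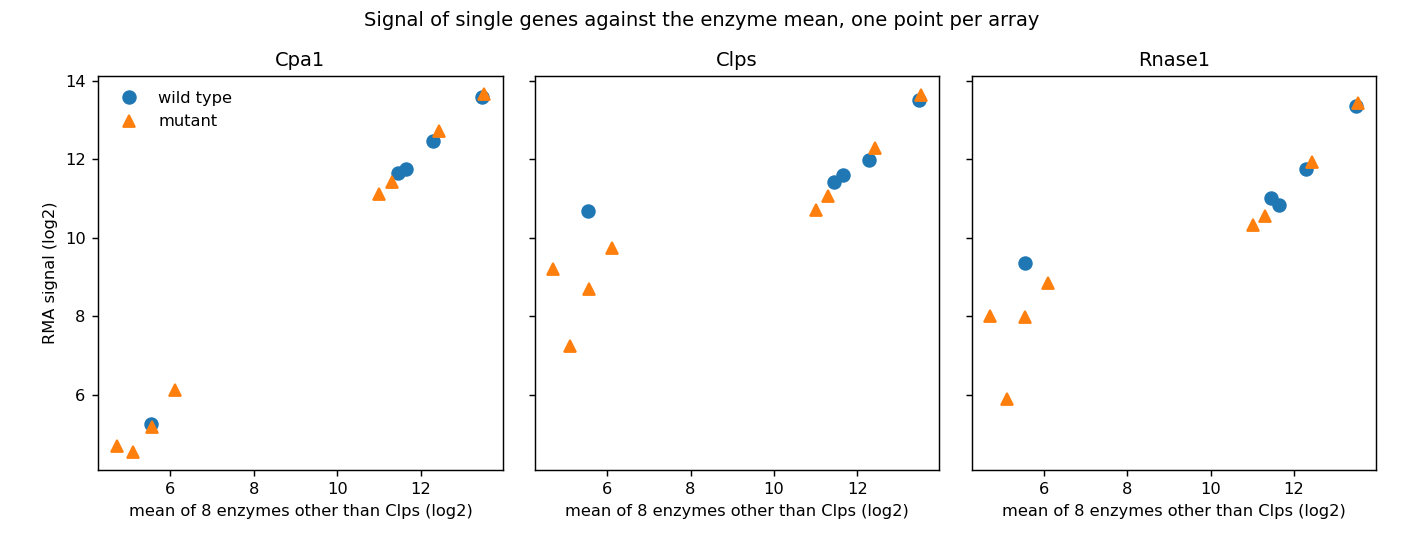
Log2 level of Cpa1, Clps and Rnase1, a pancreatic ribonuclease gene (3 panels, vertical axis), against the mean log2 level of the 8 enzymes other than Clps (horizontal axis), with 1 point per array, a circle for wild type and a triangle for mutant. Among the 5 arrays where the other enzymes are low, Clps runs from 7.23 to 10.69.

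Among those 5 arrays the order of Clps, from mutant high-fat array 2 (7.23) through mutant normal diet array 2, mutant butyrate array 3 and mutant butyrate array 1 to wild-type normal diet array 1 (10.69), was also that of Pnliprp2, another lipase-related gene, at 7.66, 8.41, 9.39, 9.81 and 9.97. Cubn, the gene of cubilin, a receptor for the intrinsic factor and vitamin B12 complex of the more distal small intestine, had the same order over them, at 7.74, 8.28, 11.37, 11.38 and 11.58. Rnase1, the pancreatic ribonuclease gene, had this order too, at 5.89, 7.98, 8.01, 8.83 and 9.36. All these genes were picked out for this order after their values were seen. The share of all genes with this order was not counted, so the order says nothing particular about them. Over all 13 arrays Cubn did not follow the acinar enzymes (r = -0.27 with their mean, n = 13), and its part in the levels of Clps was not tested.

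Apart from Clps, the members rose and fell together almost without deviation. Over the 13 arrays the correlation of log2 levels was at least 0.976 in each of the 28 pairs without Clps, and between 0.866 and 0.999 in all 36 pairs, with a median of 0.988. Because the arrays lie in 2 clusters, such values mostly restate the gap. Within the 8 high arrays alone the lowest pairwise correlation was 0.814 and the median 0.979. By the 9-gene mean, mutant normal diet array 3 (13.53) and wild-type high-fat array 2 (13.48) were the highest of the 8 and mutant high-fat array 1 (10.98) the lowest. All arrays share 1 normalization, and these correlations are a description.

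The pooled standard deviation between arrays of the same group, a measure that ignores differences between groups, was 4.13 for Cela3b, 4.06 for Cpb1, 4.02 for Cel, 4.0 for Cpa1 and 3.89 for Cela2a on the log2 scale. These were the 5 highest values among 12393 genes, each given by 1 probe set. Ctrb1 (3.70) was at rank 8, Pnliprp1 (3.41) at rank 11, Prss2 (2.83) at rank 14 and Clps (1.81) at rank 32. The members were chosen with earlier results of these data known, so these ranks are a description. For all genes the median was 0.159 and the 99th percentile 0.786. Of the 73 genes with a value over 1, 9 were these members, 12 came from a list of 17 other measured acinar secretory genes and 3 from a list of 12 acinar transcription factors and parts of the secretory apparatus. Those 12 include Tff2, a trefoil factor that gastric mucous cells also make. Without it 11 of 16 had a value over 1. The ranks between were held in part by Gkn2 (rank 7), Gkn1 (rank 9), genes of gastric surface cells, by Tff2 (rank 12), and by the acinar protease gene Ctrl (rank 10).

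**Figure D3:**
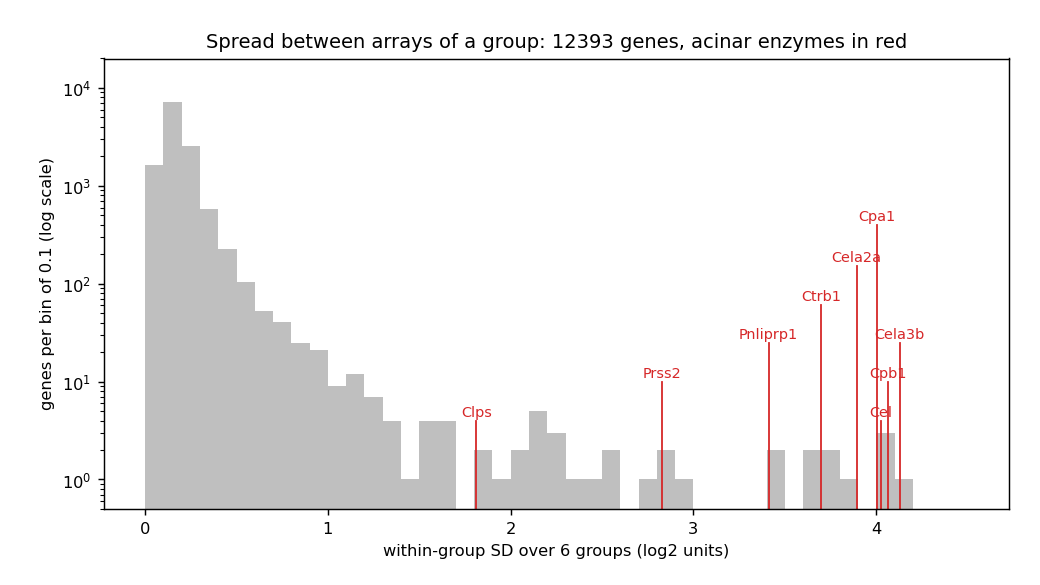
Number of genes (vertical axis, log scale) by their pooled within-group standard deviation of log2 levels (horizontal axis), with the acinar enzymes marked in red. Most genes lie near the median of 0.159, and the 9 enzymes lie between 1.81 and 4.13.

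The first comparison the design implies is mutant against wild type, which was made with diet as a term and then within each diet. The averages of the members were lower in mutants over all diets, but none passed the test. With all diets together, the difference (mutant minus wild type, 8 against 5 arrays) was -2.09 ± 1.93 (SE) for Cpa1, -1.89 ± 1.75 for Ctrb1 and -1.52 ± 0.91 for Clps, with a median of -2.03 over the 9 genes. In limma with Benjamini-Hochberg adjustment over all genes at 0.05, 0 of 9 members passed (adjusted p 0.446 to 0.721, 0 members with an unadjusted p under 0.05), where 1.02% of all genes did. The median was -0.90 without mutant high-fat array 2 and -3.59 without wild-type normal diet array 1. The 127 genes behind that share became 2 to 4 when any 1 of the 9 arrays without butyrate was left out, 138 without mutant butyrate array 2, 270 without array 3 and 329 without array 1 of that group, and 291 without the wild-type butyrate array. The standard errors of the members, 0.91 to 1.99, were of the size of the differences. In bulk tissue, fewer cells of a type and less RNA per cell cannot be told apart, which holds for every value here.

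On normal diet the mutant average was the higher one, with a median difference of 1.89 over the members (range 0.48 to 2.80). The 9-gene mean was 8.78 ± 3.77 (SD, n = 2) in wild type and 10.62 ± 4.12 (SD, n = 3) in mutants, and each group held a low array. Of the members 0 of 9 passed in limma (adjusted p 0.721 to 0.917, 0 members with an unadjusted p under 0.05), against 0.0242% of all genes. The arrays of the 2 genotypes overlapped for all 9 members, while 16.7% of all genes were higher and 12.4% lower in mutants without overlap. Without wild-type normal diet array 1 the median difference turned to -0.75, and without wild-type normal diet array 2 it grew to 5.17.

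On high-fat diet both mutant arrays were below both wild-type arrays for 9 of 9 members, where 20.2% of all genes were lower and 24.2% higher in mutants in this way. The 9-gene mean was 12.56 ± 1.30 (SD, n = 2) in wild type and 8.16 ± 3.98 (SD, n = 2) in mutants, whose arrays were at 10.98 and 5.35. The difference was -4.83 ± 3.17 (SE) for Cpa1, -4.63 ± 3.19 for Cel and -3.57 ± 1.44 for Clps, with a median of -4.74. In limma 0 of 9 members passed (adjusted p 0.389 to 0.646), against 0.0403% of all genes, and 1 member, Clps, had an unadjusted p under 0.05 (0.0300). Without mutant high-fat array 2 the median difference was -1.55, and without mutant high-fat array 1 it was -7.57. Array 2 of each genotype on high-fat diet has in its identifier a number common to both, which the labels do not explain, and these arrays were the highest and the lowest of the 4 (13.48 and 5.35).

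With butyrate added to the high-fat diet, the wild-type array was above all 3 mutant arrays for 9 of 9 members, where 28.0% of all genes were lower and 22.6% higher in mutants in this way. The wild-type mean of 12.25 rests on 1 array, and the mutant mean was 7.67 ± 3.19 (SD, n = 3). The median difference was -5.06, and 0 of 9 members passed in limma (adjusted p 0.911 to 0.935, 0 members with an unadjusted p under 0.05), against 0% of all genes. For all genes 749 had an unadjusted p under 0.05. The median difference was -7.06 without mutant butyrate array 2 and -3.66 without mutant butyrate array 3.

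The genotype difference on high-fat diet minus that on normal diet, an interaction, had a median of -6.75 over the members, with standard errors of 1.95 to 4.43. Of the members 0 of 9 passed in limma (adjusted p 0.915 for each, 0 members with an unadjusted p under 0.05), against 0.00807% of all genes. The median interaction was -3.57 without mutant high-fat array 2, -3.69 without wild-type normal diet array 1 and -9.97 without wild-type normal diet array 2. The genotype comparisons within a diet and this interaction use the same arrays.

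**Figure D4:**
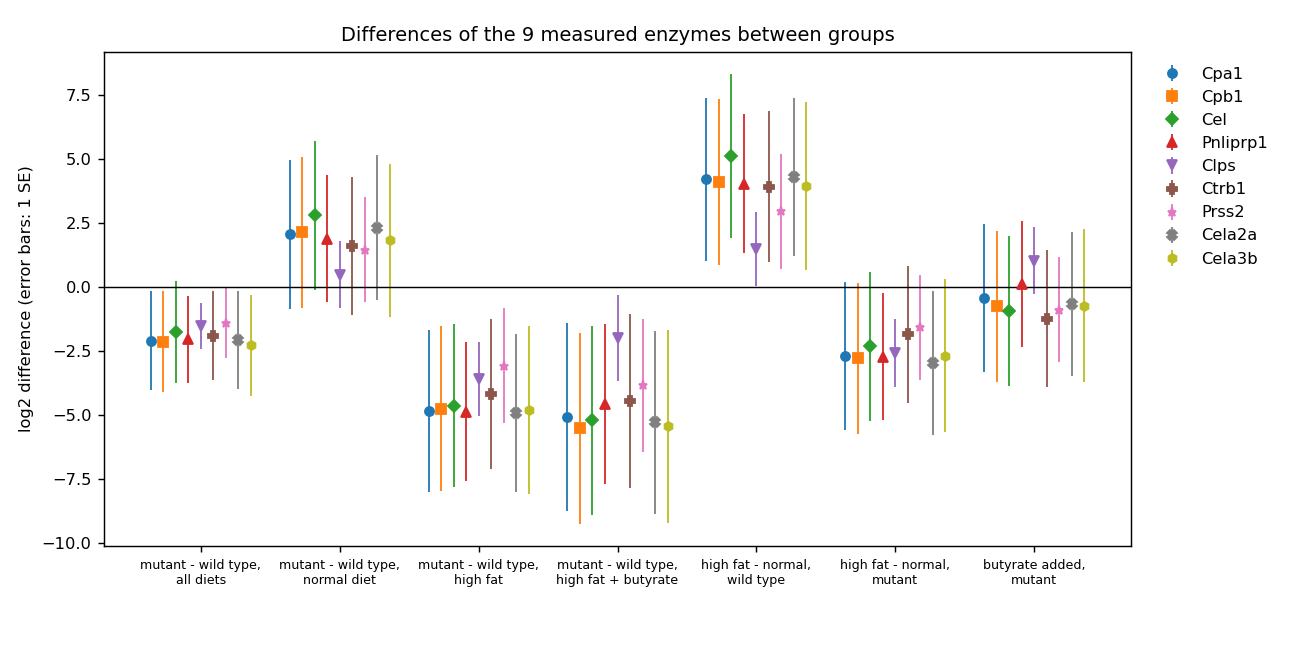
Difference in log2 level (vertical axis, bars of 1 standard error) for each of the 9 measured acinar enzyme genes in the genotype and diet comparisons (horizontal axis), with zero as a line. For genotype on high-fat diet the estimates run from -4.91 to -3.06, and 0 of 9 genes pass the test in any comparison shown.

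The diet comparisons were made within a genotype. The arrays of a diet carry identifiers from a number series of their own, so diet and array series cannot be told apart. In wild type, the high-fat arrays were above the normal diet arrays by a median of 4.04 over the members, and 7 of 9 members (not Cpb1 or Cela3b) did not overlap, where 22.5% of all genes were higher and 27.9% lower in this way. Of the members 0 of 9 passed in limma (adjusted p 0.338 to 0.559, 0 members with an unadjusted p under 0.05), against 11.0% of all genes. Without wild-type normal diet array 1 the median was 1.12, and without array 2 it was 7.30. In mutants the median was -2.67 and 0 of 9 passed (limma adjusted p 0.209 to 0.691, 0 members with an unadjusted p under 0.05), against 17.7% of all genes. The groups overlapped for all members in both directions, where 23.7% of all genes were higher and 27.9% lower without overlap. That median was 0.52 without mutant high-fat array 2 and -5.30 without mutant high-fat array 1. Leaving out mutant normal diet array 2, the low one of its group, gave a passing fall for Clps alone (-3.99 ± 1.04, SE, limma adjusted p 0.0352). In that setting 1447 of all 12393 genes passed.

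Butyrate added to the high-fat diet in mutants (3 against 2 arrays) gave a median difference of -0.73 over the members, from -1.24 for Ctrb1 to 1.03 for Clps. In limma 0 of 9 members passed (adjusted p 0.633 to 0.980, 0 members with an unadjusted p under 0.05), against 21.7% of all genes. For all members the groups overlapped, while 27.2% of all genes were higher and 21.8% lower with butyrate without overlap. The median was 2.56 without mutant high-fat array 1, -3.69 without mutant high-fat array 2 and 0.89 without mutant butyrate array 3. The share of all genes that passed was thus largest in the comparison where the acinar averages were closest.

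The genes most like the acinar enzymes were other products of acinar cells. By the correlation of log2 level with the 9-gene mean over 13 arrays, given as a description, the 10 nearest named genes that are no members were Ctrl (0.998), Cela1 (0.985), Sycn (0.966), Gp2 (0.951), Rnase1 (0.930), Cuzd1 (0.907), Pla2g1b (0.877), Reg3d (0.875), Reg2 (0.873) and Klk1 (0.827). Ctrl encodes a chymotrypsin-like protease, Cela1 an elastase, Sycn and Gp2 proteins of the zymogen granule and Rnase1 the pancreatic ribonuclease. Within the 8 high arrays Ctrl (0.995), Cela1 (0.998), Rnase1 (0.994) and Cuzd1 (0.985) kept values near 1, while Reg2 was at 0.403. In all, 15 genes had a correlation over 0.9, of which 8 were members, and none had one under -0.9. The 5 most opposed genes, Fank1 (-0.818), Il20 (-0.791), Ing2 (-0.782), Mageb3 (-0.781) and Trpm5 (-0.769), each ranged over 0.69 or less, against ranges of 6.39 to 9.99 for the members.

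The wider acinar lists showed how far the pattern reached. Of the 17 measured genes of other secretory products, 13 ranged over more than 2 log2 units (12 of 16 without Tff2, whose correlation with the 9-gene mean was 0.47 over 13 arrays). The list's mean went from 7.70 on mutant high-fat array 2 to 11.93 on mutant normal diet array 3. In contrast Reg1 (13.21 to 13.74), Zg16 (13.24 to 13.65), Dmbt1 (12.21 to 12.82) and Spink1 (11.77 to 12.33), all genes that the intestinal epithelium also expresses, varied by 0.61 or less. The levels of Reg1 and Zg16 lay near the top of the scale, where the highest value on any array was 14.2, so a small range there is a limited measure of how much the transcript varied. Rnase1 behaved like Clps in falling less on some low arrays, where it lay between 5.89 and 9.36. None of the 17 passed in any of the 8 comparisons by limma, where between 0% and 21.7% of all genes did. Their median difference was -0.82 for genotype over all diets and -2.10 on high-fat diet, where all 17 were lower in mutants, against medians of 0.01 and 0.01 over all genes. On normal diet the median was 1.15, with 12 of 17 higher in mutants, against 0.02 over all genes.

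Some genes of a further acinar list rose clearly on fewer arrays than the enzymes. Among 12 measured acinar transcription factors and parts of the secretory apparatus, Serpini2, a serpin of the exocrine pancreas, ranged from 2.75 to 9.84 and Cckar, the cholecystokinin receptor of acinar cells, from 2.85 to 8.48. Both were highest on mutant normal diet array 3 and wild-type high-fat array 2, the arrays with the most enzyme signal. Ptf1a was at 5.63 and 5.59 on those arrays and at 4.23 or lower on the other 11, and Rbpjl at 5.70 and 5.79 there and at 4.64 or lower elsewhere. The medians over the 13 arrays were 4.42 for Serpini2, 4.11 for Cckar, 3.92 for Ptf1a and 4.42 for Rbpjl. Such low levels may be near the background of a probe set, where a change in a weak transcript may not show. Ptf1a and Rbpjl were named after their values were seen. Their product is the PTF1 complex, whose motifs are marked in the Ctrb1 and Cel sequences above. In this list Gata4 was higher (1.02 ± 0.22, SE, limma adjusted p 0.0151) on high-fat than on normal diet in wild type, and in mutants Gata4 was higher (0.84 ± 0.20, adjusted p 0.0152) and Nr5a2 lower (-0.65 ± 0.19, adjusted p 0.0370). With butyrate added in mutants both went the opposite way, Gata4 lower (-0.94 ± 0.20, limma adjusted p 0.00754) and Nr5a2 higher (0.82 ± 0.19, adjusted p 0.0113). Both are also expressed by intestinal epithelium.

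Among genes of islet cells, the hormone-producing part of the gland, Ins2, Iapp and Ppy were high on few of the arrays with high enzymes, and Gcg, Chga and Sst did not share this pattern. Ins2, an insulin gene, was at a log2 level of 10.92 on mutant normal diet array 3, 9.93 on wild-type high-fat array 2 and 7.50 on the wild-type butyrate array, and between 5.63 and 5.99 on the other 10. Iapp, the gene of islet amyloid polypeptide, was highest on the same 3 arrays in the same order (7.99, 7.44 and 6.66). On the other 10 Iapp lay between 4.61 and 6.39, with 6.39 on mutant butyrate array 3, where the enzymes were low. Ppy, the gene of pancreatic polypeptide, rose above its range of 3.69 to 4.40 on mutant normal diet array 3 alone (6.82). The 3 arrays with the most islet signal were among the 4 with the highest acinar mean. The other of these 4, mutant normal diet array 1, with an acinar mean of 12.42, had Ins2 at 5.76. Gcg, the glucagon precursor gene, was at 6.27 on mutant normal diet array 3, below its median of 6.62, and was highest (7.22) on wild-type normal diet array 1, where the enzymes were low. Chga (7.73) and Sst (9.11) were on mutant normal diet array 3 below their medians of 8.28 and 9.26 as well. Endocrine cells of the gut also express Gcg, Chga and Sst. Chga and Sst were named after their values were seen. Over 13 measured islet genes, 4 ranged over more than 2, and the list's mean went from 5.98 to 7.23. Of 8 measured duct genes, 2 did (Muc1 and Car2), and Krt19, a keratin of ducts and also of gut epithelium, lay between 12.10 and 12.65. The 13 islet and 8 duct genes that were measured include none that passed in a genotype comparison, where 0% to 1.02% of all genes did. For diet in mutants the duct genes Krt7 and Slc4a4 passed in limma, where 17.7% of all genes did. With butyrate added in mutants Slc2a2 of the islet list and Cftr of the duct list passed, where 21.7% of all genes did.

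**Figure D5:**
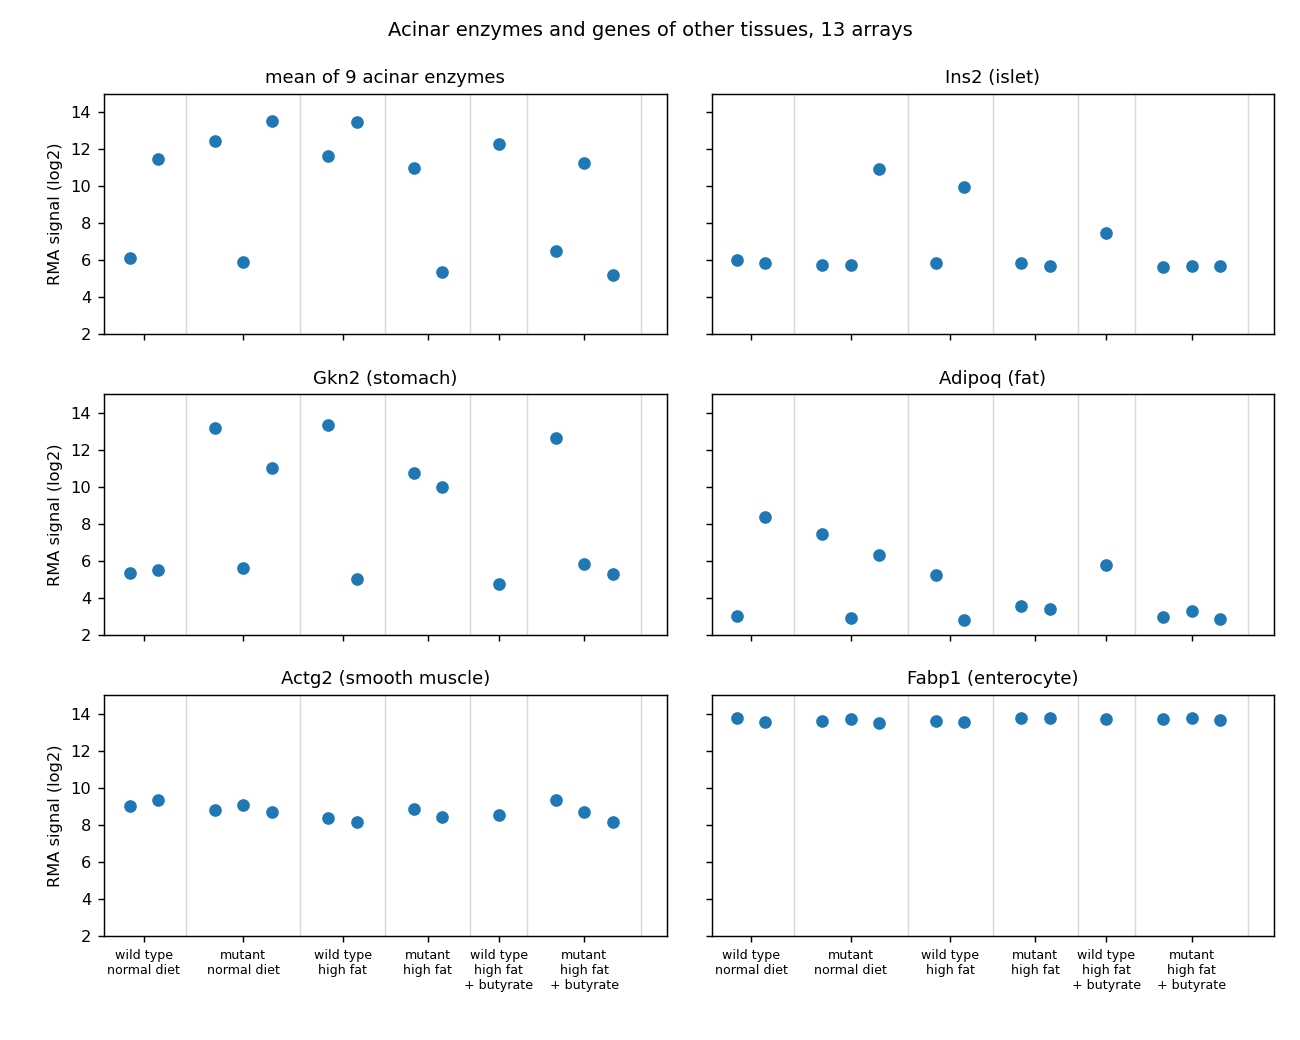
Log2 level (vertical axis) of the mean of the 9 acinar enzymes and of single genes of islets (Ins2), stomach (Gkn2), fat (Adipoq), smooth muscle (Actg2) and enterocytes (Fabp1) in 6 panels, with 1 point per array set out by genotype and diet (horizontal axis). The enzyme mean runs from 5.21 to 13.53, while Fabp1 stays between 13.53 and 13.78 and Actg2 between 8.15 and 9.36. Fabp1 lies near the top of the scale, so its small range is a limited measure.

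Genes of other adjoining tissues also varied between arrays, in part on the arrays with high enzymes. Of 12 measured genes of gastric and Brunner gland cells, 6 ranged over more than 2, and the list's mean ran from 5.04 on the wild-type butyrate array to 7.52 on wild-type high-fat array 1. Gkn2, a gastrokine of the stomach surface, was between 10.03 and 13.38 on 6 arrays and between 4.78 and 5.83 on the other 7. Of those 6, the enzymes were high on 4, which were wild-type high-fat array 1 (Gkn2 at 13.38), mutant normal diet arrays 1 (13.20) and 3 (11.04) and mutant high-fat array 1 (10.74). They were low on the other 2, mutant butyrate array 1 (12.65) and mutant high-fat array 2 (10.03). Of 7 measured adipose genes, 3 ranged over more than 2, and Adipoq, the gene of adiponectin, was at 8.38 on wild-type normal diet array 2, at 7.46 on mutant normal diet array 1, at 6.32 on mutant normal diet array 3, at 5.78 on the wild-type butyrate array and at 5.28 on wild-type high-fat array 1. Those 5 arrays all had high enzymes, and Adipoq was at 3.55 or lower on the other 8, of which 3 also had high enzymes. The correlation of the list's mean with the 9-gene mean over 13 arrays was 0.62 for the adipose list and 0.16 for the gastric list. Of 7 measured liver genes, Cyp2e1 (4.29 to 7.40) and Ttr (7.33 to 9.83) ranged over more than 2. Smooth muscle and enteric nerve genes did so in 0 of 10, with a list mean of 7.50 to 8.03.

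The gut's own genes that activate or call for pancreatic juice varied less than the enzymes, with a median range of 1.21 over 7 measured genes, against 9.10 for the members and 0.749 for all genes. Tmprss15, the gene of enterokinase, lay between 5.38 and 7.24, with its lowest value on wild-type high-fat array 2, where the enzymes were near their highest, and showed no relation to the 9-gene mean (r = -0.00, n = 13). Sct (secretin, 8.05 to 9.44) and Cck (cholecystokinin, 7.01 to 8.22), the hormones that call for pancreatic juice, were both lowest on mutant high-fat array 2. Gcg (5.14), Chga (7.16) and Sst (8.13) were lowest there too, while Gip, Pyy and Nts (neurotensin) were not. A low value on that array was thus not particular to Sct and Cck. Nts ranged over more than 2, as 1 of the 7. The mean of 16 measured enterocyte genes lay between 11.10 and 11.69 and that of 7 ileal genes between 7.24 and 7.95. Single genes of these lists varied more than the means. Of the 16, 2 ranged over more than 2, Cybrd1 (5.40 to 11.44) and Anpep (9.75 to 12.83). Of the 7, 1 did, Cubn (7.29 to 11.58). In the 4 genotype comparisons and the interaction, 0 of the 125 measured genes of these 12 lists passed in limma. In the diet and butyrate comparisons 4, 13 and 14 of them did, which is 3.2%, 10.4% and 11.2%, against 11.0%, 17.7% and 21.7% of all genes, and none of those was an acinar secretory gene. The part of gastric, adipose and islet tissue in the values of the acinar enzymes was not tested.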

How the data were processed

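The log2 expression values are the authors' deposited ones, computed by RMA in Affymetrix Expression Console 1.1, which corrects background, normalizes by quantiles and sums up the probes of a set, per the submitters' processing notes. Per the labels, 200 ng of column-purified total RNA was labelled with biotin; the labels name a kit for whole-transcript arrays, while the probe set names are those of a 3' array. For the probe sets a genome build was not given in the sources used here. Of 22690 probe sets, 64 were controls, 20380 had exactly 1 symbol in the platform annotation, 691 several and 1555 none. Entrez identifiers of 20351 matched RefSeq (GRCm38.p6), and 0 symbols changed. Each of 12393 genes was represented by 1 probe set, that of highest mean. Any pair of arrays shared at most 408 equal values to 3 decimals, so none was taken for a copy.

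Two-sided tests were run in R 4.3.3 with limma 3.58.1 (lmFit, contrasts, and eBayes with a trend in intensity) and adjusted after Benjamini-Hochberg over all genes, at 0.05. The fits held all 13 arrays, with a mean per group for the 6 groups (7 residual degrees of freedom) or, for genotype over all diets, with terms for diet and genotype (9). The group with 1 array is thus assumed to vary like the others. On simulated data with known changes, checked for the comparison of genotype over all diets with 12393 genes, 99% of changes of 1 and 100% of changes of 2 (log2) were recovered. The changed genes were drawn without the most variable ones, so these shares do not apply to the acinar enzymes. The design text calls the samples mice, and no label says more on where replicates came from; p-values measure only the spread among these samples, which may be technical.

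The members and the gene lists were chosen with earlier results of these data known. Named were all members, the 10 non-member genes most correlated with the mean of the members and the 5 least, leaving out predicted and clone names, and up to 4 genes of each list with the largest range; other names were chosen after their values were seen. Alternatives were quantile normalization, averaging all probe sets of a gene, no intensity trend, array weights, removing genes below the 30th percentile by mean, only the arrays of the groups compared, the replicate number as a block, and leaving out each array. Promoter sequences are the 250 bases before the gene's start in RefSeq. Clps had none in that table.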

Additional observations from a re-analysis of the deposited data

How the results depend on the processing

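In each of the 8 comparisons 0 of 9 members passed in limma, and this held under every alternative run but 1. In the comparison of high-fat with normal diet in mutants, leaving out single arrays gave 0 to 1 members, the 1 being Clps without mutant normal diet array 2. In that setting 1447 of all 12393 genes passed. Leaving out 1 array changed the sign of the members' median difference in the genotype comparison on normal diet, in the diet comparison of mutants and, for 2 arrays, in the butyrate comparison; in the others the size changed and not the sign. With the replicate number as a block, which leaves out the unnumbered wild-type butyrate array, 0 members passed in the 7 comparisons that could be fitted, and the genotype difference over all diets was -1.29 for Cpa1 and -1.63 for Clps. Same-numbered arrays did not deviate together (correlations of -0.24, -0.33 and 0.01), so the numbers were not taken to pair samples. The genotype comparison with butyrate could not be fitted with the block or without its wild-type array. A setting of only the groups compared is the same as the reported fit for genotype over all diets and was not run there. The number of all genes that passed also moved when single arrays were left out, from 3 to between 0 and 174 for genotype on normal diet, from 5 to between 3 and 105 on high-fat diet, from 1368 to between 439 and 1522 for diet in wild type, from 2197 to between 990 and 2579 for diet in mutants, from 2685 to between 1317 and 3085 for butyrate and from 1 to between 1 and 10 for the interaction. Arrays give no counts, and low levels near the background of a probe set limit how far down a fall can be followed.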

Other observations

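Some lymphoid tissue genes, which mark follicles in the gut wall, stood out on 1 of the arrays with low acinar enzymes. On wild-type normal diet array 1, Cxcl13, the chemokine that draws B cells into follicles, was at a log2 level of 8.06 and Ms4a1, the B cell gene of CD20, at 6.70. On the other 12 arrays Cxcl13 lay between 4.27 and 6.52 and Ms4a1 between 3.65 and 5.31. Cd79a and Ighm, of the same list, did not peak there. Cd79a was at 7.07, against 7.36 on mutant high-fat array 1. Ighm was at 8.02 on wild-type normal diet array 1, against 9.14 on wild-type normal diet array 2. The arrays with these higher values had high acinar enzymes. The mean of the 9 measured genes of this list was highest on wild-type normal diet array 1 (6.49) and lowest on the wild-type butyrate array (5.03), where the acinar enzymes were high.

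Cybrd1, the brush-border ferric reductase of duodenal iron uptake, had the widest range of the enterocyte genes, from 5.40 to 11.44. It was higher on high-fat than on normal diet in mutants (4.32 ± 0.73, SE, limma adjusted p 0.00294) and lower when butyrate was added (-3.79 ± 0.73, adjusted p 0.00465). In wild type it was at 8.17 and 7.47 on high-fat diet and at 5.45 and 5.40 on normal diet, and did not pass in limma. Its level on mutant butyrate array 2, the array of that group with high acinar enzymes, was 8.72, against 5.79 and 5.93 on the other 2. Over all 13 arrays Cybrd1 did not follow the acinar enzymes (r = 0.10 with their mean, n = 13).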
